A study of Homo sapiens with 6 samples.

Results

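The replication-dependent histone genes were described in total RNA sequencing of 6 cultures labelled with the neuroblastoma line IMR-5/75. Members were the genes whose identifier maps to a symbol from *H1-1* to *H1-6*, or to a symbol that starts with *H2AC*, *H2BC*, *H3C* or *H4C* and goes on with a digit, with 13 pseudogenes left out. This rule found 68 of 60651 genes, namely 6 linker histone genes of class H1, 15 of H2A, 19 of H2B, 13 of H3 and 15 of H4. The genes of *H2AC18* and *H2AC19* were not analysed here, because the identifiers paired with these symbols did not match the tables.

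The cultures were 3 titled EtOH (ethanol, the solvent) and 3 titled Tet (tetracycline), and the labels gave 5 days of treatment. The labels did not name a single model. Titles gave IMR-5/75, a *MYCN*-amplified line, and a tag spoke of a knockdown, while the protocol described SK-N-SH cells with a tetracycline-inducible *MYCN* construct. The study's methods describe IMR-5/75 cells with an inducible *MYCN* shRNA, grown under antibiotic selection, and an SK-N-AS model with inducible *MYCN*, for which they speak of single clones. Libraries are therefore named by their label. *MYCN*, the gene that tetracycline was meant to regulate, stood at 158, 256 and 156 CPM (the count relative to the normalised size of its library) in EtOH and at 197, 200 and 145 CPM in Tet. The groups overlapped, with a change of -0.07 ± 0.23 on the log2 scale (SE; adjusted p = 0.956 by edgeR), so this gene did not separate the libraries by label. Of 8 markers of noradrenergic neuroblastoma, 6 passed the filter on low counts, while *TH* was at 1 count over all libraries and *DBH* between 0 and 0.453 CPM. Of 7 markers of mesenchymal neuroblastoma, 6 passed it as well, among them *VIM* at 161 to 265 CPM in EtOH and 146 to 210 CPM in Tet. The log2 fold changes of these 6 were positive for 2 and negative for 4, from -1.02 for *PRRX1* to 1.84 for *SNAI2*. Of 5 fibroblast markers, *COL1A2* was at 0 and *DCN* reached at most 0.151 CPM, while *COL3A1*, *COL1A1* and *LUM* passed the filter. The summed level of these 5 was 13.5 to 18.7 CPM in EtOH and 21.7 to 24.4 CPM in Tet, which did not overlap. Most of it was *COL3A1*, at 7.70, 11.6 and 7.17 CPM in EtOH and at 18.1, 20.1 and 15.9 CPM in Tet (log2 fold change 1.03). The other 2 tested markers went the other way, with log2 fold changes of -0.54 for *COL1A1* and -0.50 for *LUM*. The part of such cells in the results was not tested.

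Replication-dependent histone genes supply the histones that package newly copied DNA, and their mRNAs accumulate in S phase. H2A, H2B, H3 and H4 form the core particle around which DNA is wrapped, and H1 binds the DNA between particles. The genes lie in clusters, mostly lack introns, and make mRNAs that end after a conserved stem-loop in place of a poly(A) tail. The stem-loop is bound by SLBP, and transcription of the clusters depends on NPAT, a target of the cyclin E kinase. Libraries made from total RNA after ribosomal RNA removal, as here, can hold such RNAs, whereas poly(A) selection discards most of them.

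The stem-loop is what these mRNAs share, and it differed by class. A perfectly paired histone stem-loop, with a stem of 6 base pairs and a loop of 4 bases, was searched on the coding strand of GRCh38 from 100 bases before to 100 bases after each gene. It was found in 62 of 68 members. Within 1000 bases from the annotated gene start it was found in 59 members and in 4 of 19860 other protein-coding genes (0.0201%). All 14 H4 genes with a match had a stem that opens with GGCCC, and in the other classes all 48 genes with a match had a stem that opens with GGCTC. The 5 variants are shown here, with 5 bases on each side, and capitals mark the stem-loop. The genes chosen are the most abundant of the members analysed in H1, H2A and H4 and a further H2B and H4 gene that carry the other loops.
H1-4: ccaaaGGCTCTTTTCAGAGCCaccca
H2AC20: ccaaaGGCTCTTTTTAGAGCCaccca
H2BC12: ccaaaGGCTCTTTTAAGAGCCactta
H4C3: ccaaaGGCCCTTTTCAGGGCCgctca
H4C12: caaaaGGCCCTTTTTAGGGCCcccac
The *H1-4* form was carried by 38 genes, the *H4C3* form by 10, the *H2BC12* form by 9, the *H4C12* form by 4 and the *H2AC20* form by *H2AC20* alone. These stem-loops lie at chr6:26157095-26157110, chr1:149887391-149887406, chr6:27146366-27146381, chr6:26104317-26104332 and chr6:27831178-27831193 in the order printed, in the 3′ part of each gene.

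The annotated genes were of 2 kinds. In 43 members the gene was a single exon block of 386 to 895 bases, and where a stem-loop was found it ended a median of 5 bases before the annotated gene end. The other 25 members were annotated with several exon blocks or over 1000 bases, from 834 to 5422 exon bases in all, and their annotated end lay a median of 1823 bases past the stem-loop. In *H2AC6* it lay 14432 bases past it. Counts are given per gene, so reads before and after the stem-loop were not separated in these longer genes.

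The classes also differed in their promoters. RefSeq promoter windows on GRCh38.p14, from 250 bases before to 50 bases after the start, were matched for 62 members. The octamer ATTTGCAT, which the factor OCT1 binds, was found on either strand in 11 of 14 H2A and 14 of 18 H2B windows, in none of the H1, H3 or H4 windows, and in 1.77% of all 35116 windows. The H1 box AAACACA was found in all 6 H1 windows, 1 H2A and 2 H3 windows, and in 5.64% of all windows. CCAAT was found in every H1, H2A, H2B and H3 window matched, in 3 of 13 H4 windows and in 34.6% of all windows. TATAAA was found in 41 of 62 windows (66.1%) and in 11.5% of all windows. The E-box CACGTG, a sequence that MYC proteins bind, was in none of the 62 windows and in 7.26% of all. Each motif was searched on both strands, and none contains another. Windows of back-to-back H2A and H2B genes, such as *H2AC20* and *H2BC21*, overlap, so the same copy of a motif can count in both classes.

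**Figure D1:**
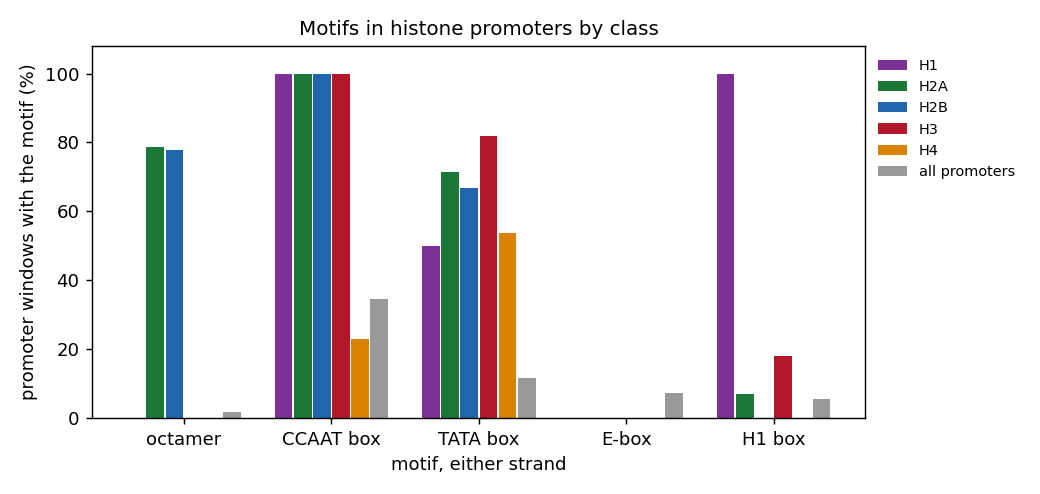
Share of RefSeq promoter windows (%, y axis) that hold each motif on either strand (x axis), for the 5 histone classes and for all windows. The octamer is seen in H2A and H2B (11 of 14 and 14 of 18 windows), the H1 box mostly in H1 (6 of 6), and CCAAT in all classes but with only 3 of 13 in H4. Windows of back-to-back H2A and H2B genes overlap, so the same copy can count in both classes.

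The windows of *H2AC6*, the member with the lowest p-value between the groups, and of *H1-4*, the member with the highest mean CPM, are given with all 5 motifs in capitals on either strand. The *H2AC6* window (chr6:26123922-26124221, plus strand) also covers the 218 bases between *H2AC6* and *H2BC4*, which is transcribed the other way. It holds an octamer that starts at -130, CCAAT at -172, -98 and -68 and TATAAA at -31, counted from the start. The *H1-4* window (chr6:26156079-26156378, plus strand) holds the H1 box at -117, CCAAT at -54 and TATAAA at -29, with another TATAAA on the opposite strand at -148.
H2AC6 promoter: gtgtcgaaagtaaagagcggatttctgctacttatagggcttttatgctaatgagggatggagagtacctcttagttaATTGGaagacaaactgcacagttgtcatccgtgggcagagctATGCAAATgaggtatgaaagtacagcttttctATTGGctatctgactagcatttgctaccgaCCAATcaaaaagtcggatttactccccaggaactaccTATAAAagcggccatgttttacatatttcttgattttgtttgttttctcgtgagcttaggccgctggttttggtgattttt
H1-4 promoter: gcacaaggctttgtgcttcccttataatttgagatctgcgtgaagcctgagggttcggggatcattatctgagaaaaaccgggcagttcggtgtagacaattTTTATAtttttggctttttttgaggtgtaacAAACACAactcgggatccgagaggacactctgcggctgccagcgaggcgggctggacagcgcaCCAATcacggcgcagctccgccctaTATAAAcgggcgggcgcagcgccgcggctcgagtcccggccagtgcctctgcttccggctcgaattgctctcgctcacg

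Histone mRNAs were a small part of these libraries. The libraries held 27933378 to 40498065 estimated counts, of which 2323 to 10070 fell on the 68 members. This was 0.00832% to 0.0249% of counts, and it stayed low although the libraries were made from total RNA. Of the members, 13 had no count in any library, 8 had more than 0 and up to 3 counts over all 6 libraries, 9 had more than 3 but did not pass the filter, and 38 passed it and were tested. The tested members held 99.6% of the histone counts and the 10 most abundant 63.9%. A count of 0 over all libraries allows a level of up to 0.0152 CPM (3 counts of 197653285), for counting error only.

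Expression was uneven along the clusters. The 68 genes fell into 8 groups when genes over 250000 bases apart were separated. The cluster on chromosome 6 from 26017032 to 26285638 (GRCh38) held 32 members, of which 17 were tested. Within it, the adjoining genes *H1-3*, *H4C6*, *H4C7*, *H3C7*, *H2BC9*, *H3C8* and *H2BC10* (26234212 to 26273412) had 5 counts together over all libraries, and *H1-1*, *H3C1* and *H4C1* at its start (26017032 to 26022050) had 1. *H4C8*, the next gene after this stretch, had 410 counts. The cluster from 27807444 to 27893891 on chromosome 6 held 16 members, of which 10 were tested. In it *H2AC16*, *H1-5*, *H3C11* and *H4C13* (27865317 to 27873534) had 2 counts together, between *H2AC15* with 109 and *H3C12* with 359.5 counts. All 5 genes of the cluster from 27125897 to 27147562 were tested. *H2AC1* and *H2BC1*, a pair known from testis, and the pair *H2AC25* and *H2BC26* on chromosome 1 were at 0 in every library.

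**Figure D2:**
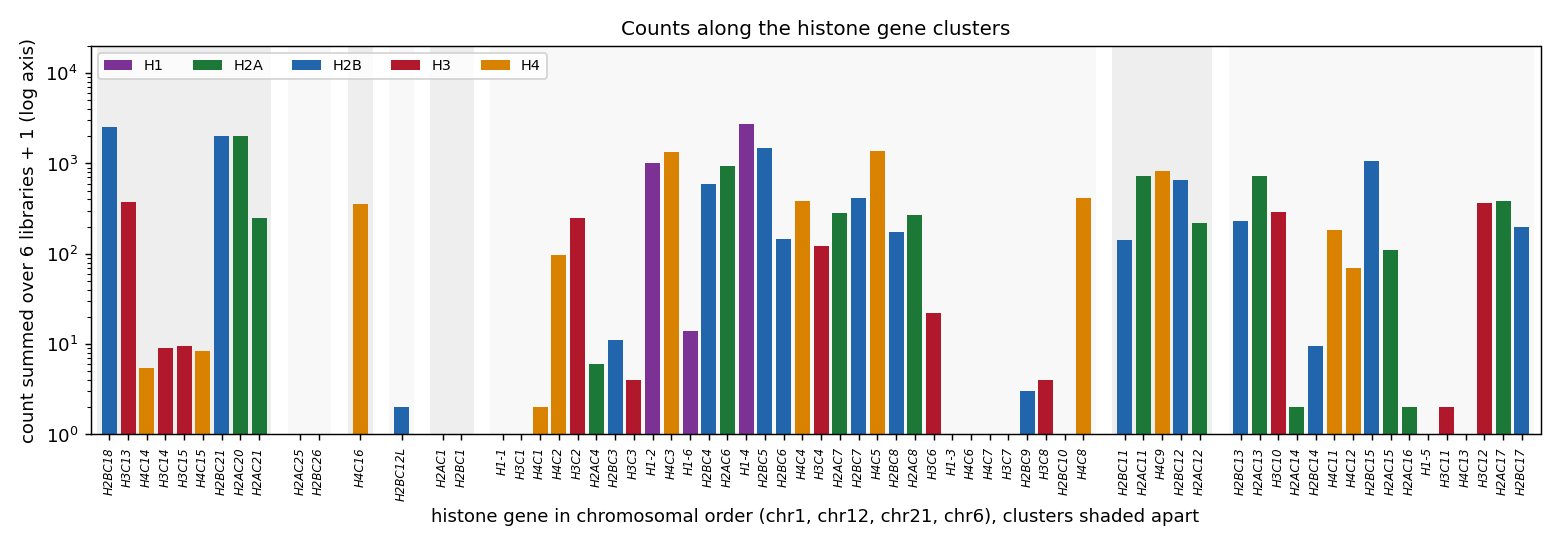
Count summed over the 6 libraries plus 1 (y axis, log scale) for each of the 68 histone genes in chromosomal order (x axis), coloured by class, with clusters shaded apart. Genes without a bar had no count, and 3 runs of at least 3 adjoining genes held 5 counts or fewer together on chromosome 6.

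Some low members are near-identical copies whose reads could be lost, since only unique alignments were counted. In 8 members more than 50% of the 100-base windows of the exons were found again in another histone gene. In *H3C14* and *H3C15* all windows were repeated, in *H4C14* and *H4C15* 100% and 96.8%, and these 4 genes had between 4.5 and 8.5 counts over all libraries. In *H4C11* and *H4C12* 90.7% and 91.3% were repeated, and in *H2AC13* and *H2AC14* 57.7% and 61.8%. Levels of these genes are uncertain. None of the 14 genes in the 3 runs with next to no counts on chromosome 6 had such a window. Counts were also divided between overlapping genes, and 13 members share exon bases with another gene, with 100% of *H2AC15*, 96.6% of *H3C4*, 85.3% of *H2AC7* and 71.05% of *H2AC17* shared. *H2AC17* and *H3C12*, of which 40.3% was shared, overlap each other on the same strand. They had 382.5 and 359.5 counts over all libraries, so their levels and fold changes are not separate.

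A single gene carried much of a class in most classes. Levels were compared between genes as TPM (counts divided by annotated exon length and scaled to a common total), averaged over 6 libraries. *H1-4* was at 42.3 TPM and *H1-2* at 17.1 TPM, while *H1-6*, a testis linker histone, was at 0.232 TPM with 13 counts and *H1-1*, *H1-3* and *H1-5* were at 0. Among the H2A genes analysed, *H2AC20* at 51.7 TPM led, before *H2AC13* at 18.8, *H2AC17* at 10.2 and *H2AC6* at 7.36 TPM. The rank, share and sum of H2A leave out *H2AC18* and *H2AC19*, which were not analysed. *H4C3* at 43.3 TPM led H4, before *H4C4* at 12.3, *H4C5* at 11.9 and *H4C9* at 8.87 TPM. In H2B the levels were closer, with *H2BC5* at 22.4, *H2BC12* at 17.4, *H2BC21* at 11.6 and *H2BC18* at 10.4 TPM. In H3 they were *H3C13* at 10.98, *H3C2* at 6.496, *H3C12* at 5.49 and *H3C4* at 3.20 TPM. The leading gene held 70.9% of its class in H1, 47.1% in H4, 42.4% in H2A, 37.1% in H3 and 23.6% in H2B. Summed over a class, EtOH libraries held 114 ± 14.5 TPM of H2A, 98.3 ± 14.9 of H4, 84.6 ± 20.05 of H2B, 44.4 ± 9.11 of H1 and 30.7 ± 13.8 of H3 (SD, n = 3). The sums ranged from 97.6 to 124 TPM for H2A, from 87.3 to 115 for H4 and from 65.1 to 105 for H2B, which overlap, and the highest H3 sum of 46.4 TPM lay below the lowest of these, 65.1 TPM. Annotated lengths past the stem-loop lower the TPM of the longer genes, and reads of the repeated copies could be lost.

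Before the groups were compared, Tet replicate 3 stood apart. The summed level of the 68 genes was 115, 113 and 90.4 CPM in EtOH and 82.3, 96.5 and 253 CPM in Tet. Tet replicate 1 lay below all EtOH libraries, Tet replicate 2 within their range, and Tet replicate 3 was 2.83 times the mean of the other Tet libraries. It was the highest of the 6 libraries for 32 of 38 tested members (84.2%), against 21.2% of all genes tested. Its level was over 2 times the mean of Tet replicates 1 and 2 for 30 of the 38 (78.9%), and for 9.66% of all genes tested.

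Other RNAs moved with this library. RN7SL1, the RNA of the signal recognition particle, was at 75.6, 77.7 and 66.7 CPM in EtOH and at 79.1, 89.0 and 342 CPM in Tet. RMRP, the RNA of the RNase MRP enzyme, was at 4.199, 4.65 and 4.48 CPM in EtOH and at 4.15, 3.96 and 25.8 CPM in Tet. Summed over 7 such RNAs without a poly(A) tail (RN7SK, RN7SL1, RN7SL2, RMRP, RPPH1, TERC and SCARNA2, chosen after the values were seen), the level was 181 to 342 CPM in the other 5 libraries and 911 CPM in Tet replicate 3. GC content moved with it too. Among genes that are no members, the median ratio of Tet replicate 3 to the mean of Tet replicates 1 and 2 was 0.919 for 11502 genes under 45% GC, 1.09 for 7645 genes from 45% to 55%, and 1.84 for 3258 genes of 55% or more. For the 20 tested members of 55% or more it was 3.55, and for the 5 under 45% it was 1.91. The part of GC content and of RNA without a poly(A) tail in the histone result was not tested. Mitochondrial genes took 9.14% of counts in this library and 4.12% to 10.01% in the others. In every bulk value here, a change in the share of cells in S phase and a change in histone mRNA per cell cannot be told apart.

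**Figure D3:**
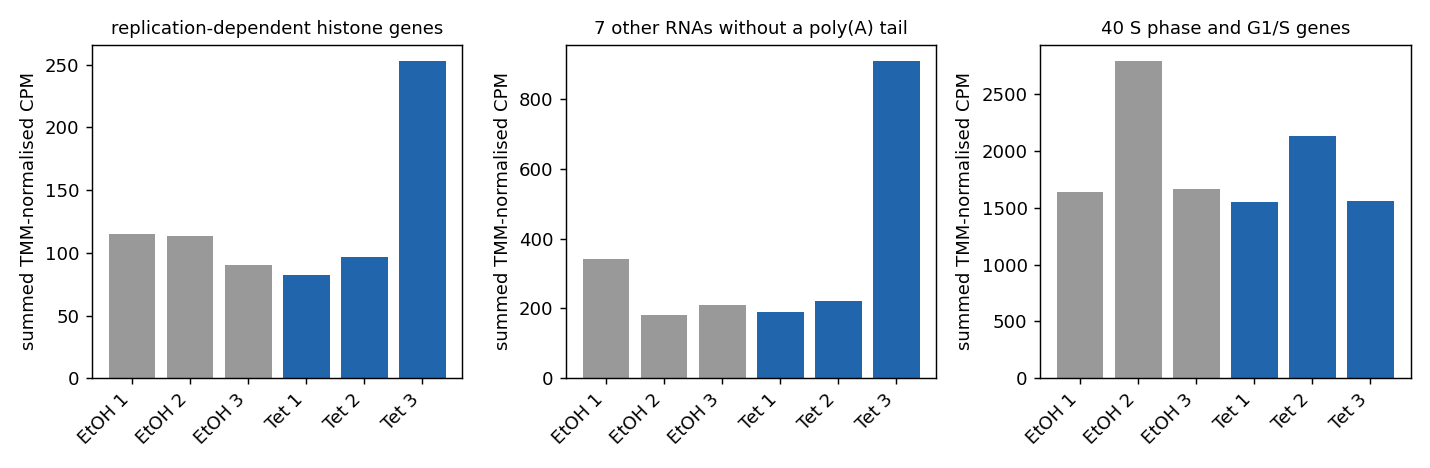
Summed TMM-normalised CPM (y axes, from 0) in each library (x axes; grey EtOH, blue Tet) for the 68 histone genes, the 7 other RNAs without a poly(A) tail, and the 40 S phase and G1/S genes. Tet replicate 3 is highest in the panels of histone genes and of RNAs without a poly(A) tail, but not among S phase genes, where EtOH replicate 2 is highest.

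The comparison of Tet with EtOH asked whether 5 days of tetracycline changed histone mRNA. By edgeR's quasi-likelihood test with Benjamini-Hochberg adjustment over all 22443 genes tested, 0 of 38 histone genes passed an adjusted p of 0.05 in either direction, while 53 of all genes did (0.236%, 33 higher and 20 lower). At an unadjusted p under 0.05 there were 2 of 38 histone genes, *H2AC6* and *H4C16*, and 2417 of all genes tested (10.8%). DESeq2 called 1, *H2AC6*, and limma-voom called 0. The median log2 fold change of the 38 was 0.37, against -0.01 over all genes tested, and 30 were positive and 8 negative. Without Tet replicate 3 the median was -0.43, against -0.04 over all genes tested. Of the 38, 9 were then positive and 29 negative, and 21 changed sign. Among genes that are no members, the median without that library was -0.16 for 3258 genes of 55% GC or more. It was -0.33 for the 256 of these under 1000 bases, a range in which 20 of the 38 fell. The count at an unadjusted p under 0.05 was then 6 of 38, against 9.01% of all genes tested, with *H4C2*, *H4C3*, *H2BC13*, *H3C12* and *H2AC17* lower and *H2AC6* higher in Tet, and 0 passed after adjustment. Of these, *H3C12* and *H2AC17* overlap and share exon bases, so they are not separate observations. So the direction of the histone genes as a group rested on 1 library. The groups did not overlap for 4 of 38 members (10.5%), *H2AC6*, *H4C16*, *H4C8* and *H2BC6*, against 17.5% of all genes tested, and all 4 were higher in Tet.

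**Figure D4:**
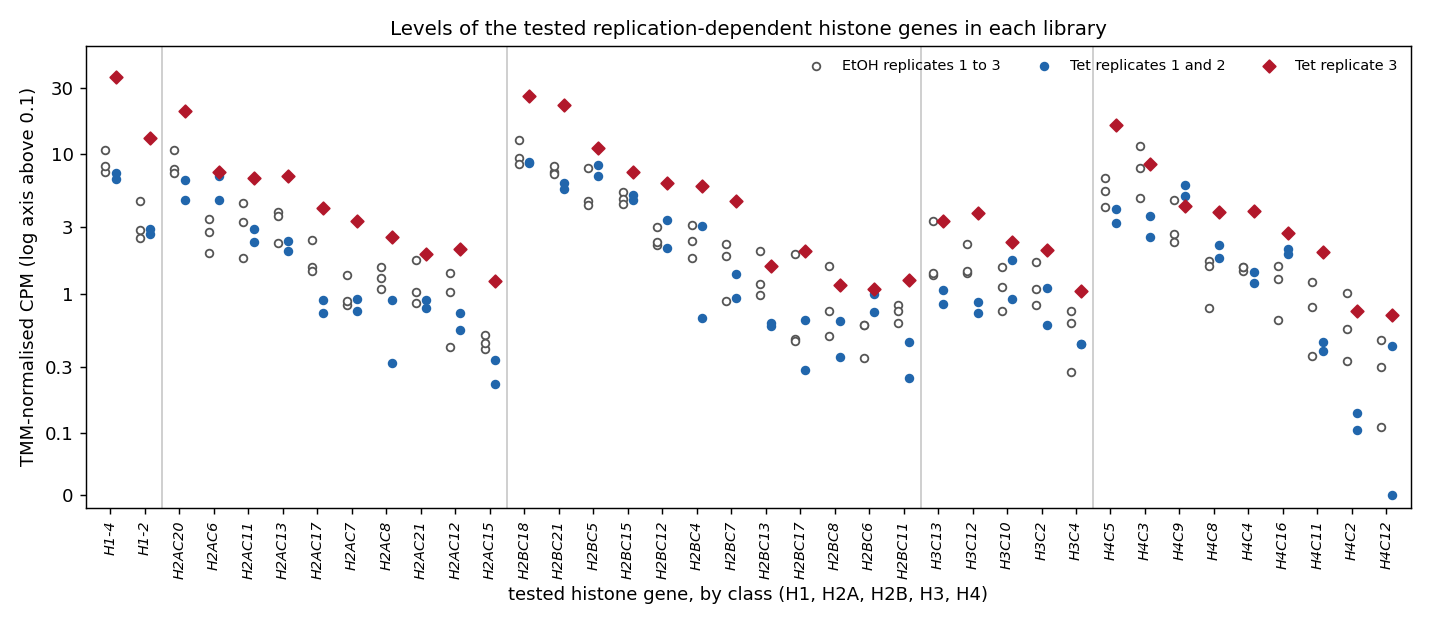
TMM-normalised CPM (y axis, log scale above 0.1) of the 38 tested histone genes, by class and mean level (x axis), with 1 point per library. Tet replicate 3 (red) is the highest of the 6 points for 32 genes, while Tet replicates 1 and 2 (blue) lie among or below the EtOH points (open) for most, and above them for *H2AC6*, *H4C16*, *H4C8*, *H2BC6* and *H4C9*.

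*H2AC6* (ENSG00000180573.10, chromosome 6, 26124145 to 26139116, plus strand) encodes a core histone H2A and had the largest log2 fold change among the tested members. It was at 1.97, 2.80 and 3.47 CPM in EtOH and at 4.68, 7.05 and 7.4996 CPM in Tet. Every Tet library lay above every EtOH library, and the log2 fold change was 1.23 ± 0.31 (SE), with an unadjusted p of 0.00367 and an adjusted p of 0.184 by edgeR, past no threshold after adjustment. Without Tet replicate 3 it was 1.10 (adjusted p = 0.414). DESeq2 gave an adjusted p of 0.0148 on the genes tested by edgeR and 0.0228 on all genes with a count. Over all alternatives the fold change lay between 1.01 and 1.41 and the adjusted p between 0.012 and 0.507. Besides DESeq2, adjusted p-values under 0.05 came from edgeR with a replicate block (0.0216) and with that block and a GC correction (0.0121).

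*H4C16* (ENSG00000197837.3, chromosome 12, 14767999 to 14771131, minus strand) is an H4 gene that lies outside the clusters. It was at 1.58, 0.649 and 1.29 CPM in EtOH and at 2.11, 1.92 and 2.76 CPM in Tet, without overlap, with a log2 fold change of 0.95 ± 0.39 (edgeR, adjusted p = 0.429). *H4C8*, an H4 gene of the large chromosome 6 cluster, was at 1.73, 1.59 and 0.793 CPM in EtOH and at 2.23, 1.81 and 3.85 CPM in Tet. The lowest Tet value of *H4C8* was close to the highest EtOH value, with a log2 fold change of 0.94 ± 0.42 (edgeR, adjusted p = 0.478), and of 0.56 without Tet replicate 3. *H4C9* was the only tested member for which Tet replicate 3, at 4.24 CPM, lay below both other Tet libraries, at 5.05 and 6.06 CPM. Its EtOH values were 2.71, 4.74 and 2.36 CPM, with a log2 fold change of 0.64 ± 0.33 (edgeR, adjusted p = 0.542).

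Of the 5 classes, H1 had the largest median ratio of Tet replicate 3 to the mean of the other Tet libraries, 4.87, and H3 the smallest, 2.42. *H1-4* (ENSG00000168298.7, chromosome 6, 26156329 to 26157115, plus strand) was at 10.7, 7.502 and 8.33 CPM in EtOH and at 6.66, 7.39 and 35.8 CPM in Tet. Tet replicates 1 and 2 lay below all EtOH libraries and Tet replicate 3 far above them, so the log2 fold change of 0.91 ± 0.60 (edgeR, adjusted p = 0.665) turned to -0.33 without that library. *H1-2* was at 4.60, 2.89 and 2.51 CPM in EtOH and at 2.91, 2.71 and 13.04 CPM in Tet, and its log2 fold change went from 0.90 to -0.25. *H1-4* made up 7.66% and 8.09% of the histone CPM in the other Tet libraries, 6.63% to 9.28% in EtOH, and 14.1% in Tet replicate 3.

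The 8 members with a negative fold change over all libraries stayed negative without Tet replicate 3, among them *H4C3*, *H4C2*, *H2BC13* and *H3C13*. *H4C3* (ENSG00000197061.5, chromosome 6, 26103933 to 26104337, plus strand), the leading H4 gene, was at 11.5, 4.87 and 8.03 CPM in EtOH and at 2.55, 3.64 and 8.61 CPM in Tet. Tet replicates 1 and 2 lay below EtOH and Tet replicate 3 within its range. On the log2 scale *H4C3* differed by -0.72 ± 0.48 (edgeR, adjusted p = 0.671), and by -1.38 without Tet replicate 3 (adjusted p = 0.392). As a share of the histone CPM, *H4C3* was at 9.94%, 4.31% and 8.89% in EtOH and at 3.10%, 3.77% and 3.40% in Tet. All Tet shares, that of Tet replicate 3 included, lay below all EtOH shares, though 3.77% was close to 4.31%. The shares of *H1-4*, *H2AC20*, *H2BC18* and *H2BC21* overlapped between the groups. No difference in shares was tested. *H2BC13*, a core H2B gene, was at 1.19, 2.02 and 0.975 CPM in EtOH and at 0.620, 0.592 and 1.59 CPM in Tet, with a log2 fold change of -0.55 ± 0.50 (edgeR, adjusted p = 0.777), and of -1.17 without Tet replicate 3. *H4C2*, which has a mean under 1 CPM and was chosen after its values were seen, was at 0.558, 1.01 and 0.331 CPM in EtOH and at 0.106, 0.141 and 0.755 CPM in Tet, with a log2 fold change of -0.87 ± 0.78 (edgeR, adjusted p = 0.774), and of -2.30 without Tet replicate 3. *H3C13*, the leading H3 gene, was at 1.37, 3.35 and 1.42 CPM in EtOH and at 1.06, 0.846 and 3.33 CPM in Tet, which overlap, with a log2 fold change of -0.22 ± 0.59 (edgeR, adjusted p = 0.948), and of -1.09 without Tet replicate 3.

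Among the abundant core genes, *H2AC20* was at 10.7, 7.83 and 7.39 CPM in EtOH and at 4.75, 6.59 and 20.4 CPM in Tet. Its neighbour *H2BC21*, transcribed the other way from the same 265 bases, was at 7.55, 8.30 and 7.27 CPM in EtOH and at 5.62, 6.23 and 22.6 CPM in Tet. Both had Tet replicates 1 and 2 below all EtOH libraries and Tet replicate 3 above them. *H2BC18* was at 9.47, 12.8 and 8.56 CPM in EtOH and at 8.63, 8.88 and 26.1 CPM in Tet, and *H2BC5* at 8.01, 4.63 and 4.33 CPM and at 6.98, 8.45 and 11.2 CPM. Of these 4, only *H2BC5* kept a positive fold change without Tet replicate 3 (0.65 with it and 0.45 without). The other genes named by level, *H2AC13*, *H2AC17*, *H2BC12*, *H3C2*, *H3C4*, *H3C12*, *H4C4* and *H4C5*, had log2 fold changes from 0.06 to 0.62 with adjusted p-values from 0.649 to 0.987 (edgeR). Without Tet replicate 3 these went from -1.13 to 0.13, and only that of *H2BC12* stayed positive.

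By class, 0 genes passed the adjusted threshold in H1, H2A, H2B, H3 or H4, and the count at an unadjusted p under 0.05 was 1 in H2A, 1 in H4 and 0 in the others, where 10.8% of all genes tested passed it. The median log2 fold change was 0.91 for the 2 tested H1 genes, 0.29 for 10 H2A, 0.45 for 12 H2B, 0.08 for 5 H3 and 0.52 for 9 H4 genes. Without Tet replicate 3 all 5 medians were negative, at -0.29, -0.54, -0.37, -0.48 and -0.37 in the same order. By cluster, the medians were 0.30 for the 5 tested genes on chromosome 1, 0.52 for the 17 of the large chromosome 6 cluster, 0.33 for the 5 near 27.1 megabases and 0.23 for the 10 at its far end, and -0.51, -0.33, -0.27 and -0.78 without Tet replicate 3. No difference between classes or clusters was tested.

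The members with longer annotated genes behaved less like the short ones, a split made after the values were seen. The 21 tested short genes had a median ratio of Tet replicate 3 to the mean of Tet replicates 1 and 2 of 3.49, with none below 2.23. The 17 tested longer genes had a median ratio of 2.34 and ranged from 0.763 to 4.73. Without Tet replicate 3, 20 of 21 short genes and 9 of 17 longer ones had a negative fold change. The summed level of the short genes was 57.9, 50.5 and 45.2 CPM in EtOH and 29.9, 36.6 and 124 CPM in Tet, so that Tet replicates 1 and 2 lay below every EtOH library. That of the longer genes was 57.5, 62.6 and 45.2 CPM in EtOH and 52.5, 59.9 and 130 CPM in Tet, where they lay within the EtOH range. All 4 members whose groups did not overlap were longer genes. Median GC content was 57.7% in the short and 47.2% in the longer genes, so GC content moved with this split. Among genes that are no members, the median log2 fold change without Tet replicate 3 was -0.03 for 5600 genes under 1000 bases. It was -0.33 for the 256 of these with 55% GC or more. The part of GC content was not tested.

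**Figure D5:**
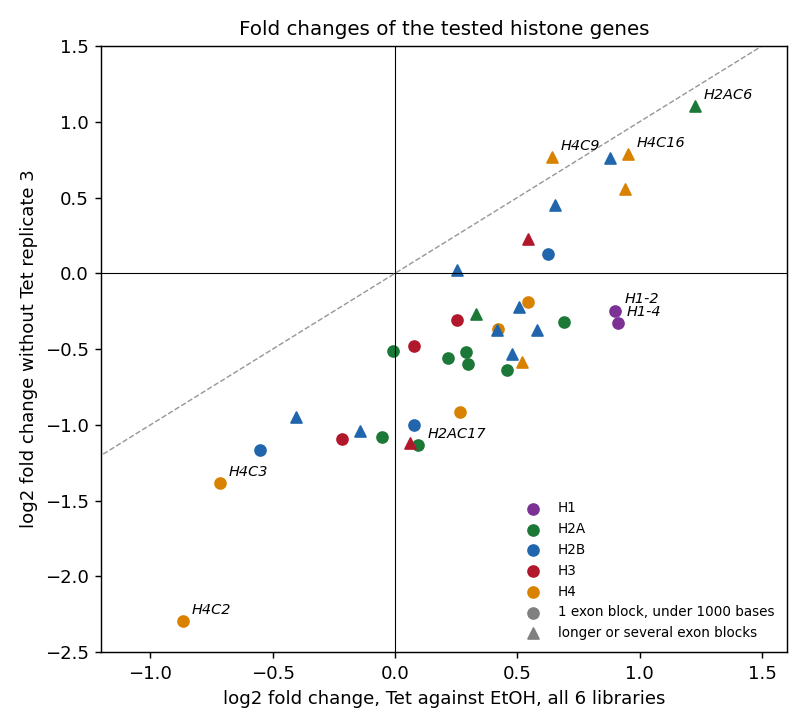
Log2 fold change of each of the 38 tested histone genes with all 6 libraries (x axis) and without Tet replicate 3 (y axis), coloured by class, with circles for single-block genes under 1000 bases and triangles for the others. Points in the lower right changed sign, and the 9 points above 0 on the y axis are 8 longer genes and 1 short gene.

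Back-to-back starts were found in 12 pairs of members within 500 bases of each other, with 214 to 318 bases between them, and 11 of these join an H2A and an H2B gene. In 8 of the 11 both genes were tested, in 2 both were at 0, and *H2AC14* and *H2BC14* had 1.0 and 8.5 counts. Partners did not have equal values. *H2AC6* had a log2 fold change of 1.23 and *H2BC4* of 0.42, and *H2BC4* was at 2.39, 3.10 and 1.82 CPM in EtOH and at 0.674, 3.05 and 5.99 CPM in Tet, with overlap. Without Tet replicate 3 these were 1.10 and -0.37. *H2AC13* had 0.22 and *H2BC13* -0.55 with all libraries, and -0.56 and -1.17 without that library, so their opposite signs rested on it. *H2AC7* and *H2BC7* had 0.69 and 0.48, and -0.32 and -0.53 without it. *H2AC17* and *H2BC17* had 0.10 and 0.08, and -1.13 and -1.002 without it. The differences between partners were not tested.

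*SLBP* and *NPAT* did not share the high level of Tet replicate 3. *SLBP* was at 40.2, 104 and 39.8 CPM in EtOH and at 47.7, 74.5 and 40.4 CPM in Tet (log2 fold change -0.18 ± 0.40; edgeR, adjusted p = 0.933). *NPAT* was at 64.0, 107 and 65.9 CPM in EtOH and at 77.8, 87.2 and 56.3 CPM in Tet (log2 fold change -0.10 ± 0.25; edgeR, adjusted p = 0.942). For both genes EtOH replicate 2 was the highest library and Tet replicate 3 lay among or below the rest. All 24 listed genes of histone transcription and 3′ end processing were tested. Tet replicate 3 was over 2 times the mean of the other Tet libraries for 9.66% of all genes tested and for 3 of the 24. These were *CPSF1* with a ratio of 3.41, *SRRT* with 2.35 and *RNU7-1* with 2.28, chosen after their values were seen, and the median ratio of the list was 1.09. Of the 24, 0 passed the adjusted threshold and 1 had an unadjusted p under 0.05 (10.8% of all genes tested did). In this list 9 were positive and 15 negative, with a median log2 fold change of -0.07. The lowest p-values were those of *CPSF3*, the nuclease that cuts histone pre-mRNA, with 121, 97.0 and 118 CPM in EtOH and 78.6, 67.3 and 78.8 CPM in Tet (log2 fold change -0.58 ± 0.15; edgeR, adjusted p = 0.205), and of *LSM11*, a U7 snRNP protein, at -0.32 ± 0.16 (edgeR, adjusted p = 0.531). All 3 Tet libraries lay below all EtOH libraries for *CPSF3*.

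Of 40 S phase and G1/S genes, 39 were tested, 0 passed the threshold and 3 had an unadjusted p under 0.05 (10.8% of all genes tested did), with 8 positive and 31 negative and a median log2 fold change of -0.16. *MCM3*, a subunit of the replicative helicase, was at 46.4, 36.2 and 36.4 CPM in EtOH and at 21.4, 24.3 and 26.6 CPM in Tet (log2 fold change -0.72 ± 0.17; edgeR, adjusted p = 0.170). *RFC4*, of the clamp loader, had -0.39 ± 0.15 (edgeR, adjusted p = 0.402). The median of this list was -0.14 without Tet replicate 3, so unlike the histone genes its sign did not turn on that library. The summed level of the list was 1640, 2799 and 1669 CPM in EtOH and 1548, 2134 and 1558 CPM in Tet, and Tet replicate 3 lay close to Tet replicate 1. The median ratio of Tet replicate 3 to the mean of the other Tet libraries was 0.926 over the list. The ratio was over 2 for 9.66% of all genes tested and for 5 of the 39. These 5 were *CDT1* at 8.16, *TK1* at 3.21, *MCM2* at 2.78, *E2F1* at 2.56 and *FEN1* at 2.19, chosen after their values were seen.

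Most variant histones are made throughout the cell cycle from polyadenylated mRNAs. Of 12 variant histone genes 10 were tested and 0 passed. An unadjusted p under 0.05 was reached by 10.8% of all genes tested and by 1 of these 10. This was *H3-3B*, of the variant H3.3, at 587, 973 and 613 CPM in EtOH and at 1080, 1157 and 1086 CPM in Tet, without overlap (log2 fold change 0.61 ± 0.21; edgeR, adjusted p = 0.334). *CENPA*, the centromeric H3, had -0.89 ± 0.43 (edgeR, adjusted p = 0.519). Most of the variants did not share the high level of Tet replicate 3: its ratio to the mean of the other Tet libraries was 0.971 for *H3-3B* and 0.535 for *H2AZ1*. The exceptions were *H2AX*, with a ratio of 5.70, and *H1-10*, with 5.15. *H2AX* makes an mRNA that can end at a stem-loop, and it was among the 4 other protein-coding genes with this sequence. The part of this sequence in its ratio was not tested. Of 18 histone chaperones 17 were tested, with 5 positive and 12 negative. Of the 17, 0 passed and 1 had an unadjusted p under 0.05 (10.8% of all genes tested did). The lowest p-values were those of *ATRX*, which deposits H3.3 (log2 fold change 0.47 ± 0.18; edgeR, adjusted p = 0.377), and *CHAF1A*, of the assembly factor CAF-1 (-0.40 ± 0.23; edgeR, adjusted p = 0.612).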

How the data were processed

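Per the labels, ribosomal RNA was digested enzymatically before total RNA was made into stranded, paired-end libraries. The authors deposited 1 table per library of estimated counts per gene, neither scaled nor corrected for length. Per the file headers, unique STAR alignments over exons were counted with featureCounts 1.6.4, without strand, and a read pair on several genes was divided among them. The submitters' processing notes name STAR 2.7.1a, featureCounts 1.5.1 and GRCh38, and the study's methods give options that use the strand. Between 12.3% and 14.7% of genes had a value that was not whole, which splits reads of overlapping and antisense genes. The 92 spike-ins were at 0.

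Estimated counts were rounded, because the design had assumed whole counts. Genes were kept by filterByExpr, scaled by TMM and tested with edgeR 4.0.16 in R 4.3.3 (quasi-likelihood F test, Benjamini-Hochberg over all genes tested, threshold 0.05). SE is the fold change divided by the square root of F. CPM is TMM-normalised and TPM uses annotated exon length. The fit was tested on simulated data, where it found few of the genes given a log2 fold change of 1. A gene that did not pass is therefore not shown to be unchanged. Symbols matched 60481 of 60651 identifiers, and coordinates are on GRCh38, counted from 1. The study's methods give 3 independent biological replicates for in vitro experiments unless stated otherwise, and the labels did not say so for these cultures. The p-values measure the spread between these libraries. Floors cover counting error only.

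The members, the lists and the alternatives were chosen with earlier results of these data known, so members are described by counts and medians. Named genes were the 4 members per class with the highest mean TPM, members past the threshold, the 3 with the most positive and the 3 with the most negative fold change among members of at least 1 CPM, *SLBP*, *NPAT* and *MYCN*, and, per list, the 2 with the lowest p. Other genes named were chosen after their values were seen, and 1 gene of the variant histone list is not reported here. Alternatives were RLE and upper quartile scaling, other filters, DESeq2 1.42.0, limma-voom (limma 3.58.1), no mitochondrial genes, a GC correction, a replicate block and leaving out each library. Correlations of same-numbered deviations were 0.0603, 0.510 and 0.219. They were not all over 0.1, so the numbers were not taken to pair the cultures.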

Additional observations from a re-analysis of the deposited data

How the results depend on the processing

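Leaving out Tet replicate 3 turned the direction of the histone genes, and no other alternative did so for their median or their sum. The median log2 fold change of the tested histone genes lay between -0.43 (without Tet replicate 3) and 0.64 (without Tet replicate 1), and between 0.09 and 0.49 under the other alternatives planned. It was 0.25 and 0.52 over the short and over the longer genes alone, a split added after seeing the data. The log2 ratio of the summed level was 0.44, from -0.25 to 0.72 when 1 library was left out, 0.19 as TPM and 0.26 as the mean of within-number differences.

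The number of histone genes called higher was 1 under DESeq2 with either gene set, with the replicate block and with the block and GC correction, *H2AC6* each time, and 0 under all other settings. None was called lower under any setting. Genes called over all genes went from 53 to 302 without a filter, 485 by DESeq2 on all genes with a count, 606 by DESeq2 on the genes tested by edgeR, 120 with GC correction, 675 with the replicate block and 1096 with the block and GC correction, and to between 0 and 692 when 1 library was left out. EtOH replicate 2 was the library left out at 692. Among the lists, the S phase list went from 0 to 1 call by DESeq2 with either gene set and with the block, and to 2 with the block and GC correction. The processing list went to 1 by DESeq2 on the genes tested by edgeR and with either block, the variant histones to 1 with the block and 2 with the block and GC correction, and each of these 3 lists had 0 to 1 calls when 1 library was left out. The cause of these shifts was not tested.

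*MYCN* ranged from -0.22 to 0.21 when 1 library was left out, *SLBP* from -0.48 to 0.45 and *NPAT* from -0.25 to 0.19. Leaving out 1 library moved *H1-2* between -0.25 and 1.26, *H1-4* between -0.33 and 1.26, *H2AC13* between -0.56 and 0.49, *H2AC17* between -1.13 and 0.48, *H2AC20* between -0.60 and 0.63, *H2BC18* between -0.22 and 0.76, *H2BC21* between -0.37 and 0.88, *H3C12* between -1.12 and 0.44, *H3C13* between -1.09 and 0.34, *H3C2* between -0.48 and 0.41, *H3C4* between -0.31 and 0.56, *H4C4* between -0.19 and 0.81 and *H4C5* between -0.58 and 0.89. With GC correction, *H2AC20* was at -0.018, *H3C2* at -0.12, *H3C4* at -0.026, *H2AC13* at -0.21, *H3C12* at -0.38 and *H2AC17* at -0.32. With the replicate block, *H3C2* was at -0.038, *H3C12* at -0.30 and *H2AC17* at -0.29. With the block and GC correction, *H2AC20* was at -0.11, *H3C2* at -0.10, *H2AC13* at -0.18, *H3C12* at -0.44 and *H2AC17* at -0.40. With limma-voom, *H3C12* was at -0.26 and *H2AC17* at -0.26.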

Other observations

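A pair of histone pseudogenes held more counts than most members. *H2BC20P* (chromosome 1, 149844498 to 149850937) had 8829 counts over all libraries, against 2715 for *H1-4*, the member with the most. It was at 44.5, 26.1 and 44.8 CPM in EtOH and at 53.0, 45.3 and 51.6 CPM in Tet. *H2BC19P*, which lies on the other strand and shares 55.1% of its exon bases with other genes, had 4171 counts. Counting without strand cannot tell overlapping genes apart. The ratio of Tet replicate 3 to the mean of the other Tet libraries was 1.05 for *H2BC20P* and 0.867 for *H2BC19P*, where the tested members had a median of 3.19. Of the 13 pseudogenes left out, 7 had no count in any library.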
